A study of Mus musculus with 17 samples.

Results

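The genes described here are 10 histone chaperones and chromatin architectural proteins, Nasp, Asf1a, Asf1b, Chaf1a, Chaf1b, Hat1, Hmgn2, Hmgb2, Dek and Cbx5, in antibody secreting cells (ASCs) of aged and young mice. Every probe of the array whose annotated gene symbol is one of these names was taken, which gave 18 of 45281 probes and 10 of 12989 named genes. The genes were chosen by their function and on signals already seen to differ between aged and young ASCs on these arrays, so that their differences are given as a description and not as a test. Nasp had 4 probes, Dek and Cbx5 had 3 each, Hmgn2 had 2 and each other gene had 1.

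To study how age changes gene expression of ASCs, cells were flushed from the hind leg bones of mice from Charles River labs, stained, sorted by flow cytometry for ASCs and profiled on Illumina MouseWG-6 v2 BeadChips. The aged group had 6 samples from mice of more than 17 months, and the young group had 9 samples from mice of 6 to 8 weeks. No treatment or transgene is stated for either group, and the strain of the mice on the arrays is not given in the sources used here. Young samples 3 and 4 were hybridized on 2 arrays each, which were averaged, and some samples hold cells pooled from several mice. By the study's count the aged mice outnumber the aged samples while young mice and young samples are equal in number, which places pools in the aged group, but which aged samples are pools is not given in the sources used here. The spread between samples may in part be technical.

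Histone chaperones bind histones that are not wrapped in DNA, carry them into the nucleus and hand them over for nucleosome assembly. The demand is highest when a cell copies its DNA, and dividing B cell precursors make use of this machinery while plasma cells have mostly left the cell cycle and carry condensed chromatin. Architectural proteins bind the finished chromatin fibre: HMG proteins bend DNA or loosen nucleosomes, Dek binds DNA and histones, and Cbx5 (heterochromatin protein HP1 alpha) recognizes methylated histone H3 in silent chromatin.

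The sorted samples held transcripts of plasma cells and of other bone marrow cells. Detected probes (detection p under 0.05) numbered 10401 to 17120 per array in aged ASCs and 8998 to 13803 in young ASCs, and the median signal of an array was 152 to 267 in aged ASCs and 105 to 355 in young ASCs before normalization. Jchain, the joining chain of secreted antibody, was detected in every sample, but Sdc1, which encodes the plasma cell surface protein CD138, was detected in 5 of 6 aged and in 1 of 9 young samples. Neutrophil granule genes such as Mpo and Elane were detected in all 15 samples. A lower signal in such a sample can come from fewer cells of one type or from less RNA per cell, and these cannot be told apart here.

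The promoters of 4 genes with a probe that passed the threshold below, Nasp, Hmgn2, Dek and Cbx5, and that of Hmgb2, which held the most copies of the motifs searched, are shown from RefSeq on GRCm38.p6, each from 250 bases before to 50 bases after the start of the transcript and written 5′ to 3′ along the gene. Capitals mark CCAAT, the box bound by NF-Y, and TTTGAA, the core of the CHR element found in promoters of cell cycle genes, on either strand, so that ATTGG and TTCAAA are marked as well.
Nasp promoter (chr4:116627902-116628201, minus strand): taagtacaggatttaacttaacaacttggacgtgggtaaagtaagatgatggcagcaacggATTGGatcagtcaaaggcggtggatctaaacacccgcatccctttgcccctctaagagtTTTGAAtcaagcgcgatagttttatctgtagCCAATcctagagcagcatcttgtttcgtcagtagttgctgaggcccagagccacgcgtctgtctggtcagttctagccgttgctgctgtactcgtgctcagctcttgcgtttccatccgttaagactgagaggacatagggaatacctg
Hmgn2 promoter (chr4:133967942-133968241, minus strand): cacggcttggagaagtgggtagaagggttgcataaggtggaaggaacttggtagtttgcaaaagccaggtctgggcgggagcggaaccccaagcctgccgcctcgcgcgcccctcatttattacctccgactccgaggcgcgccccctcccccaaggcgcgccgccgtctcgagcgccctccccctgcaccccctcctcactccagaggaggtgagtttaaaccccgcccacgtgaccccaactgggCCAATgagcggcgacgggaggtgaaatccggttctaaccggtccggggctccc
Hmgb2 promoter (chr8:57511593-57511892, plus strand): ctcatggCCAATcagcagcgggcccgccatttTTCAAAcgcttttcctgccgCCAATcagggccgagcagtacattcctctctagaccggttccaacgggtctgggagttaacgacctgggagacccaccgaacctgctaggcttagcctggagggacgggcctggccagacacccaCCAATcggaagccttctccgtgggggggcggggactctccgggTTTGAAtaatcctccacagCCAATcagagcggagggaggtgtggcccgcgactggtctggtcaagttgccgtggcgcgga
Dek promoter (chr13:47106172-47106471, minus strand): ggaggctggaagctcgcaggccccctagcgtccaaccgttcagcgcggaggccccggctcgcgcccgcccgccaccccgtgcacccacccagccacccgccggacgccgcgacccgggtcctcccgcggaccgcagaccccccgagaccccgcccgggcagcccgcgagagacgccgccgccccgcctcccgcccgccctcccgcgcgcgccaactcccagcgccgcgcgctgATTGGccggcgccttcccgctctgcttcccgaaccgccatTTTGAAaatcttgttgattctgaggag
Cbx5 promoter (chr15:103239803-103240102, minus strand): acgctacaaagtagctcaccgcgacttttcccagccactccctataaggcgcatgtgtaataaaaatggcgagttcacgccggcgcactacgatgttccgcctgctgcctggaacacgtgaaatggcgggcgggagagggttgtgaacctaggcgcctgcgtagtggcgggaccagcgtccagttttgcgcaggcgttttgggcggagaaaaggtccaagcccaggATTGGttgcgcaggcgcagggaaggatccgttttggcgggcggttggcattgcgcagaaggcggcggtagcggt

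CCAAT was found in 9 of the 11 promoter windows that RefSeq lists for the 10 genes, of which Cbx5 has 2, against 37.4% of 32851 windows of all genes of the same length. TTTGAA was found in 4 of the 11 windows, those of Nasp, Asf1b, Hmgb2 and Dek, against 17.9% of all windows, and each of these 4 also held CCAAT, a combination present in 6.95% of all windows. Hmgb2 and Asf1b held 4 copies of CCAAT each, and 1.06% of all windows held 4 or more. The E2F letters TTTCCCGC, TTTGGCGC and TTTCGCGC occurred in 0 of the 11 windows and in 1.84% of all windows. Other forms of an E2F site were not searched, so this count does not show that such sites are absent. No marked motif overlapped another, and a match is a description of the letters and not of a bound site.

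Of the 18 probes, 14 probes of 7 genes were bright and variable enough to be tested, and 5 probes of Nasp, Hmgn2, Dek and Cbx5 were lower in aged ASCs past the threshold (limma, Benjamini-Hochberg adjusted p under 0.05 over 11073 tested probes), while 0 were higher. These 5 are 35.7% of the tested member probes, and 0.325% of all tested probes were called lower (1.38% were called in either direction and 1.06% higher). As the choice of the genes used this comparison, nothing is read from that share. The median log2 fold change over the brightest tested probe of the 7 genes was -0.82, and that over all tested probes was -0.01. Among all 18 probes 16 had a lower mean in aged ASCs and 2 a higher one, and 51.8% of all tested probes had a lower mean. The 2 with a higher mean, Asf1a and Cbx5 ILMN_1228337, were not tested, and their means were lower in aged ASCs under some other settings.

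**Figure D1:**
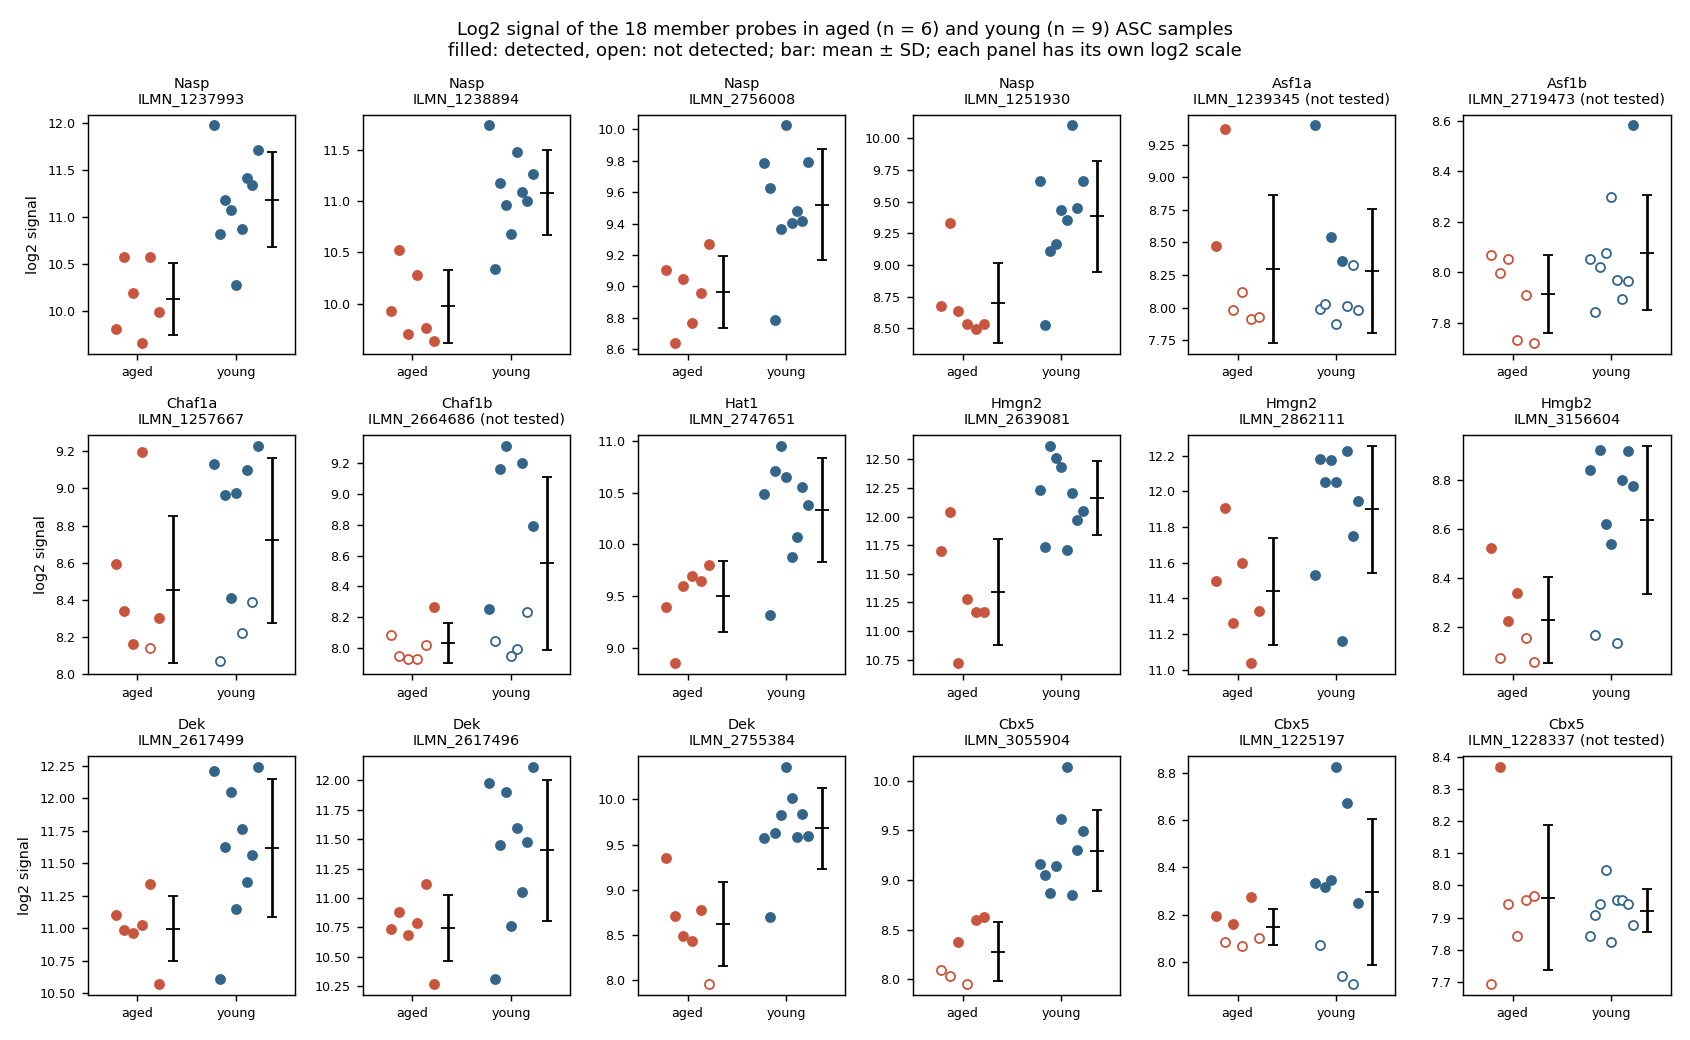
Quantile normalized log2 signal (vertical axis, its own scale in each panel) of the 18 probes in 6 aged (left) and 9 young (right) ASC samples, with filled points for detected and open points for undetected samples and bars for the mean ± SD. The aged points of Cbx5 ILMN_3055904 all lie below the young points, and every other panel shows some overlap.

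Nasp (GRCm38.p6 chr4:116601052-116628676), which binds histones H3 and H4 and keeps a soluble reserve of them, was measured by 4 probes, all detected in all 15 samples. The log2 signal of probe ILMN_1238894 was 9.64 in the lowest, 9.85 in the median and 10.53 in the highest aged sample, against 10.33, 11.09 and 11.74 in young ASCs. Aged sample 2 and aged sample 4 came closest to the young range, and only aged sample 2 was above the lowest young sample, sample 2. The means were 9.97 ± 0.36 in aged and 11.08 ± 0.41 in young ASCs (SD, n = 6 and 9), a log2 fold change of -1.11 (SE 0.22) or 2.15-fold lower, and the probe was called. The second called probe, ILMN_1237993, ran from 9.66 over a median of 10.09 to 10.57 in aged ASCs, against 10.27, 11.18 and 11.97 in young ASCs. Young sample 5 was the only young sample within the aged range. Its means were 10.13 ± 0.38 in aged and 11.19 ± 0.51 in young ASCs, which gave -1.06 (SE 0.24). Signals before normalization were 616 to 1768 in aged and 996 to 4067 in young arrays for this probe.

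The other 2 Nasp probes had lower means in aged ASCs but were not called. ILMN_1251930 had -0.68 (SE 0.22), with 8.50 to 9.33 in aged (median 8.59) and 8.52 to 10.10 in young ASCs (median 9.44). Aged sample 2 stood alone at the top of its group, 5 aged samples lay within 8.50 to 8.68, and young sample 2 lay among them. ILMN_2756008 had -0.56 (SE 0.20), with 8.64 to 9.27 in aged (median 9.00) and 8.79 to 10.02 in young ASCs (median 9.48). Only young sample 3 fell within the aged range. With normexp background correction the log2 fold changes of these probes were -1.28 for ILMN_1251930 and -0.92 for ILMN_2756008. RefSeq also lists a Nasp pseudogene, Nasp-ps1, and signal from such a near-identical copy cannot be told apart from that of Nasp here.

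Hat1 (chr2:71389260-71441622), the enzyme that acetylates newly made histone H4 before it is deposited, was detected in every sample and lay next to the threshold without passing it. Its log2 signal was 8.85, 9.62 and 9.80 in the lowest, median and highest aged sample, against 9.32, 10.49 and 10.95 in young ASCs. The aged samples were close together except for sample 2, the lowest, and only young sample 2 lay within their range. The means were 9.50 ± 0.34 in aged and 10.33 ± 0.50 in young ASCs, a log2 fold change of -0.84 (SE 0.24).

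Chaf1a (chr17:56040416-56068026) and Chaf1b (chr16:93883900-93906115) encode the large and the middle subunit of CAF-1, the chaperone that deposits histones H3 and H4 behind the replication fork. Chaf1a was detected in 5 of 6 aged and 6 of 9 young samples and measured 8.14, 8.32 and 9.20 in the lowest, median and highest aged sample, against 8.07, 8.97 and 9.23 in young ASCs. The ranges overlapped almost wholly, with aged sample 4 far above the other aged samples and 4 young samples at 8.41 or below. The log2 fold change of -0.27 had an SE of 0.22 and was not called, and it was -0.63 with normexp background correction. Chaf1b was detected in 1 of 6 aged and 5 of 9 young samples and was therefore too seldom detected to be tested. Its aged samples were packed between 7.93 and 8.27 (median 7.98), whereas the young samples were spread over 7.95 to 9.31 (median 8.25), 4 of them above every aged sample. The difference in means was -0.52 (SE 0.21), or -1.18 with normexp background correction.

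Asf1a (chr10:53596961-53609225) and Asf1b (chr8:83955694-83970195) encode the paralogous chaperones that receive histones H3 and H4 and pass them on to CAF-1 or HIRA, and neither was tested. Asf1a was detected in 2 of 6 aged and 3 of 9 young samples. Its means were 8.30 ± 0.57 in aged and 8.28 ± 0.47 in young ASCs, a difference of 0.02 that was -0.20 without aged sample 2, and 1 sample of each group, aged 2 at 9.37 and young 1 at 9.40, stood above the rest. Asf1b was not well above background in any aged sample and was detected in 1 of 9 young samples, sample 9 at 8.58, so that no fold is given. For these 2 genes a difference was not detectable at this signal, which does not show that there was none.

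Hmgn2 (chr4:133964739-133967991), which binds nucleosome cores and loosens the chromatin fibre, gave a high signal in all samples with both of its probes. Probe ILMN_2639081 measured 10.72, 11.22 and 12.04 in the lowest, median and highest aged sample, against 11.71, 12.21 and 12.62 in young ASCs. Aged sample 2 was the only aged sample within the young range, and aged sample 3 was the lowest of all. With means of 11.35 ± 0.46 in aged and 12.16 ± 0.33 in young ASCs and a log2 fold change of -0.82 (SE 0.20), it was the called probe nearest to the threshold, with Hat1 next outside it.

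The second Hmgn2 probe, ILMN_2862111, was not called. It measured 11.04, 11.41 and 11.91 in the lowest, median and highest aged sample, against 11.16, 12.05 and 12.23 in young ASCs, a log2 fold change of -0.46 (SE 0.19). Aged sample 2 was again the highest of its group, and young sample 6 was again the lowest of the young samples. RefSeq lists the pseudogenes Hmgn2-ps1 and Hmgn2l6, from whose transcripts, if present, those of Hmgn2 may not be separated.

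Hmgb2 (chr8:57511843-57515999), which bends DNA and also assists the RAG recombinase in vitro, was detected in 3 of 6 aged and 7 of 9 young samples. It measured 8.06, 8.19 and 8.52 in the lowest, median and highest aged sample, against 8.14, 8.78 and 8.92 in young ASCs. Young samples 2 and 6 lay within the aged range and were the undetected young samples, while the other 7 young samples lay above every aged sample. Its log2 fold change was -0.41 (SE 0.15), which was not called, and -1.02 with normexp background correction, still not called.

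Dek (chr13:47084767-47107530), an abundant nuclear protein that binds DNA and histones and can deposit histones itself, was measured by 3 probes. ILMN_2617499 and ILMN_2617496 moved together, as their difference varied over only 0.29 log2 units across the 15 samples, whereas the difference between any other 2 probes of one member gene varied over 1.13 to 2.53. ILMN_2617499 measured 10.57, 11.01 and 11.35 in the lowest, median and highest aged sample, against 10.61, 11.63 and 12.25 in young ASCs. Young samples 2 and 5 were within the aged range and the other 7 young samples were above it. The log2 fold changes were -0.62 (SE 0.23) for ILMN_2617499 and -0.66 (SE 0.25) for ILMN_2617496, and neither was called.

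The third Dek probe, ILMN_2755384, was dimmer and was called. It measured 7.96, 8.60 and 9.35 in the lowest, median and highest aged sample, against 8.70, 9.63 and 10.36 in young ASCs, and was undetected in aged sample 6 alone. Young sample 2 stood far below the other young samples, which all lay at 9.58 or above, higher than every aged sample. Its means were 8.62 ± 0.46 in aged and 9.68 ± 0.45 in young ASCs, a log2 fold change of -1.06 (SE 0.24). With normexp background correction it was -1.95, so the size of the difference depends on how the background is treated.

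Cbx5 (chr15:103191546-103239904) gave a different picture with each of its 3 probes. ILMN_3055904, which the annotation places on another RefSeq transcript than the other 2, measured 7.95, 8.24 and 8.63 in the lowest, median and highest aged sample, against 8.85, 9.17 and 10.14 in young ASCs. It was the only member probe whose groups did not overlap, and 0.217% of all tested probes had every aged sample below every young sample. The means were 8.28 ± 0.30 in aged and 9.29 ± 0.41 in young ASCs, a log2 fold change of -1.01 (SE 0.21), and the probe was called. With normexp background correction the log2 fold change was -2.16. It was detected in 3 of 6 aged and in all 9 young samples, and the young samples alone were enough for it to pass the filter.

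The other Cbx5 probes lay close to background. ILMN_1225197, detected in 3 of 6 aged and 6 of 9 young samples, had a log2 fold change of -0.15 (SE 0.13), or -0.41 with normexp background correction, with the aged samples at 8.07 to 8.27 inside the young range of 7.91 to 8.83. ILMN_1228337 was detected in aged sample 2 only, at 8.37, and was not tested. Of the 3 Cbx5 probes 1 was called lower in aged ASCs.

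**Figure D2:**
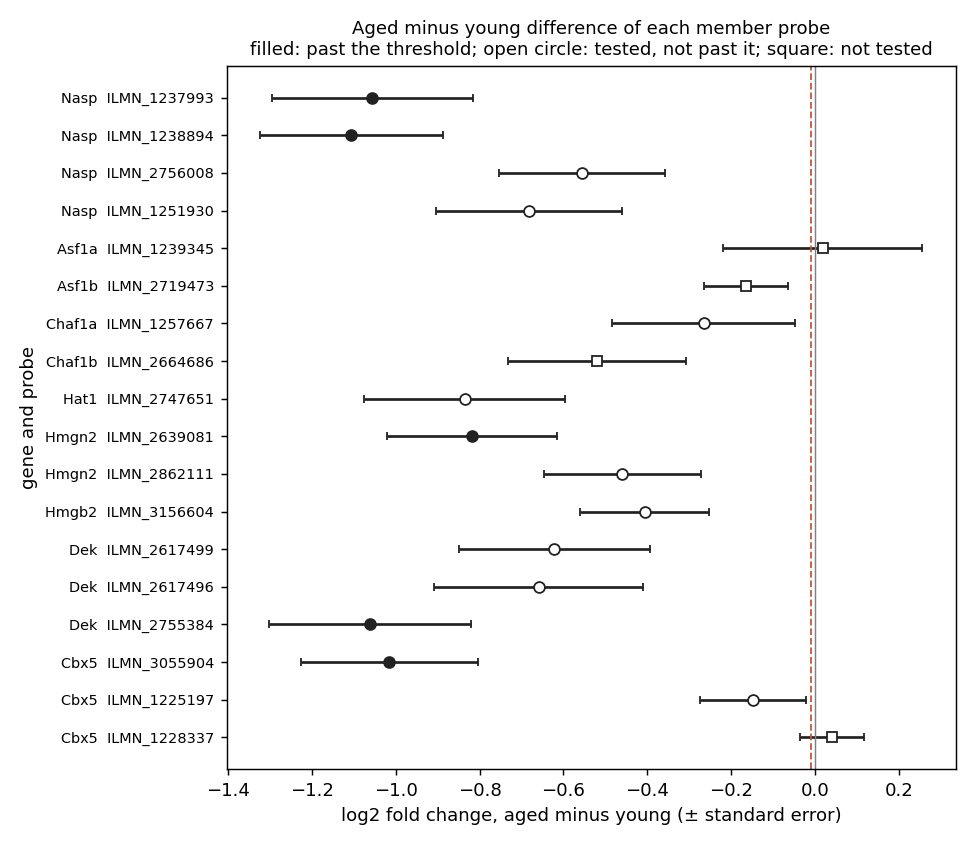
Log2 fold change, aged minus young (horizontal axis, points with standard error bars), of each of the 18 probes, with filled circles for called probes, open circles for tested probes that were not called and squares for untested probes. The dashed line is the median of all tested probes, -0.01, and the 5 filled circles lie between -1.11 and -0.82.

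The order of the samples was also described for member probes that were not called. In 13 of the 14 tested probes, which cover 7 genes, every aged sample was below the median of the young samples, the exception being Chaf1a. Of all tested probes 8.39% had this order. As the choice of the genes used this comparison, nothing is read from this share either. In 9 member probes, those of Nasp and Hat1, those of Hmgn2 and 2 of Dek, all 15 samples were detected. Of these 9, 3 were called lower, against 0.325% of all tested probes, and nothing is read from that share. The mean over the 7 brightest tested probes was 9.46 to 9.66 in aged ASCs (median 9.57) and 9.68 to 10.58 in young ASCs (median 10.29). Young sample 2 was the lowest young sample at 9.68, close to the highest aged sample, and the next young sample was at 10.10. Young sample 1 was the highest.

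The repeat arrays showed how far the members vary when one sample is measured again. Over the 18 probes the median size of the log2 difference between 2 arrays was 0.18 for young sample 3 and 0.25 for young sample 4, and over all tested probes it was 0.26 and 0.29 for these samples. Dek ILMN_2617499 differed by 0.16 in size in both samples and Hmgb2 by at most 0.02, less than their differences between aged and young ASCs. Hat1 differed by 0.65 in young sample 3 and by 1.06 in size in young sample 4, the second of which exceeded its difference between the age groups of 0.84 in size. Nasp ILMN_1237993 differed by 0.64 and 0.77 in size, against 1.06 between the groups. The repeat differences are between single arrays, whereas those between the groups are of means over 6 and 9 samples. The 2 kinds of difference are therefore unlike in precision, and neither is a limit on the other.

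**Figure D3:**
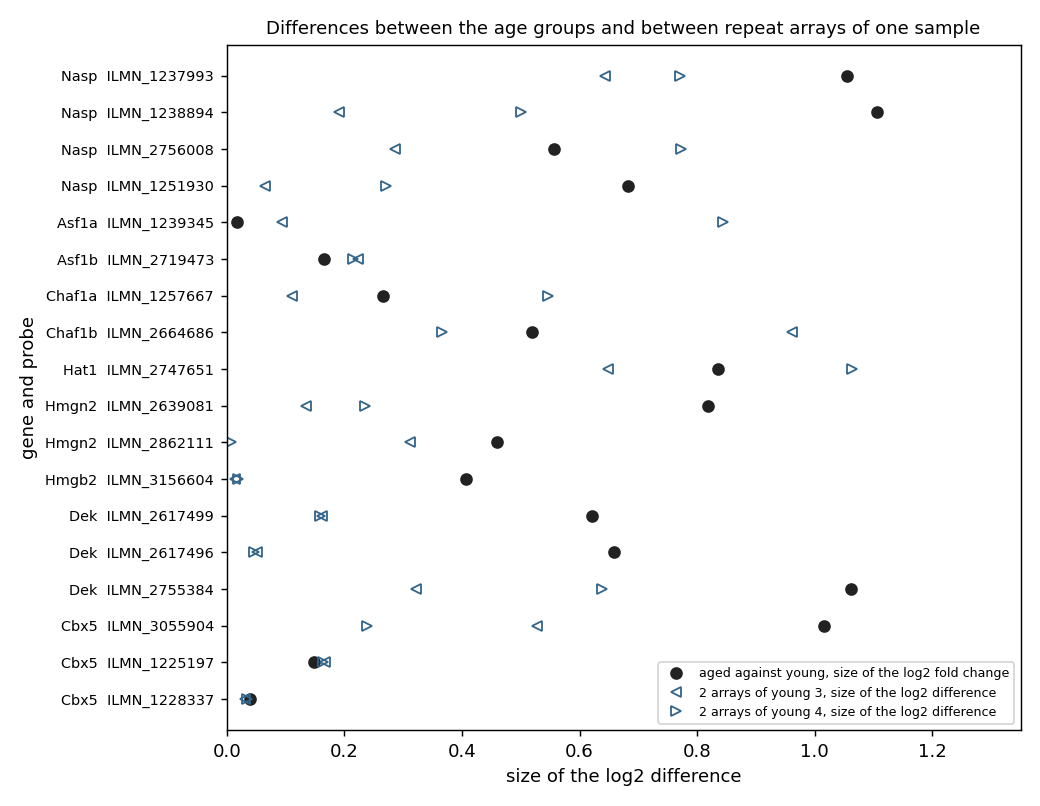
Size of the log2 difference (horizontal axis) for each of the 18 probes, with filled circles for aged against young ASCs and triangles for the 2 arrays of young sample 3 (pointing left) and young sample 4 (pointing right). Circles lie right of both triangles for the 5 called probes, and left of at least 1 triangle for Nasp ILMN_2756008, Asf1a, Asf1b, Chaf1a, Chaf1b, Hat1 and Cbx5 ILMN_1225197. Circles are differences of group means and triangles are differences of single arrays.

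Within the age groups the members did not move as one. Among the 7 genes tested, the deviations from the group mean over 15 samples gave Pearson correlations of -0.53 to 0.63 over 21 pairs (median 0.19), of which 16 were above 0. Dek was closest to the mean of the other members (r = 0.73, with 0.36 in the 6 aged and 0.77 in the 9 young samples) and Cbx5 was the least like it (r = -0.31). Over the 6 aged samples alone Dek was the only member with a correlation above 0, and the other 6 members had -0.60 to -0.05, whereas over the 9 young samples only Cbx5 was below 0 (-0.28). The named genes whose deviations were most like those of the member mean, out of 8638 named probes, were Calm2 (r = 0.89), Ppp1cb (0.87), Chd1 (0.86), Rbm8a (0.85) and Snhg1 (0.84). Chd1 encodes a chromatin remodeller and Calm2 encodes calmodulin. None of these 5 was called between aged and young ASCs, with log2 fold changes of -0.49 to 0.04. These values are descriptive, since the probes of one array share its RNA amount and amplification.

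Other histone chaperones were taken from a list of 32 genes without the members, of which 24 had a named probe and 17 were tested. The mean was lower in aged ASCs for 14 of the 17 and higher for 3, against 3233 lower of all 6289 named genes on their brightest tested probe. Of the 17, 1 was called, against 24 called lower of the 6289. The median log2 fold change was -0.44 over the 17, against -0.01 over the 6289. The called gene was Nap1l1, a chaperone of histones H2A and H2B, which fell in aged ASCs (log2 fold change -0.97, SE 0.23, limma adjusted p = 0.0352). Its log2 signal ran from 8.59 over 8.97 to 9.45 in aged and from 9.04 over 10.19 to 10.50 in young ASCs, and young sample 2 was the only young sample within the aged range. The call was kept in 6 of 15 fits with 1 sample left out, and lost with 75th percentile scaling (log2 fold change -0.87), with no filter on low values and with the methods' t-test after Benjamini-Hochberg adjustment.

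The next chaperones of that list did not pass. Anp32a, which belongs to a family of acidic histone-binding proteins, had a log2 fold change of -1.09 with an SE of 0.39 (limma adjusted p = 0.178), with wide ranges of 9.08 to 11.53 in aged and 9.44 to 12.74 in young ASCs. Rbbp7, which binds histone H4 and partners Hat1, had -0.68 (limma adjusted p = 0.170). With normexp background correction the log2 fold change was -1.36 for Rbbp7 and -1.497 for Nap1l1. Npm1, the abundant nucleolar chaperone with the highest signal of the list, had -0.48 (limma adjusted p = 0.225).

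Of 12 further HMG genes listed, 5 had a named probe and were tested. 4 of the 5 had a lower mean in aged ASCs, against 3233 of all 6289 named genes tested, with a median of -0.39 over the 5. Of these 5, 0 were called by limma, although 3 had an unadjusted p under 0.05 and the methods' t-test called Hmgn1 after adjustment. Hmgn1, the closest relative of Hmgn2, had a median of 11.99 in aged and 12.36 in young ASCs (log2 fold change -0.37, limma adjusted p = 0.167), and its highest aged sample lay just below its lowest young sample. Hmgb1 had -0.44 (limma adjusted p = 0.227) and Hmgb3 -0.45 (limma adjusted p = 0.300), both DNA-bending relatives of Hmgb2, and Hmgn5 had -0.39 (limma adjusted p = 0.569). With normexp background correction Hmgb1 had -1.03 and Hmgb3 -0.68.

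Among 18 heterochromatin genes listed, 13 had a named probe and 11 were tested. The mean was lower in aged ASCs for 9 and higher for 2, against 3233 lower of all 6289 named genes tested, and the median was -0.20. Of the 11, 0 were called by limma or by the methods' t-test after adjustment, with 2 at an unadjusted limma p under 0.05. Lmnb1, the nuclear lamina protein that holds heterochromatin at the nuclear rim, averaged 9.57 ± 0.54 in aged and 10.60 ± 0.73 in young ASCs (log2 fold change -1.03, SE 0.31, limma adjusted p = 0.113). Cbx3, the HP1 gamma paralogue of Cbx5, had -0.47 (limma adjusted p = 0.344), the centromeric histone Cenpa had -0.52 (limma adjusted p = 0.403), and Lbr, the inner nuclear membrane receptor that binds HP1, had -0.20 (limma adjusted p = 0.767). Atrx stood in both this and the chaperone list and was not called.

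Of 11 listed markers of B cell precursors, 9 had a named probe and 8 were tested. Of these 8, 5 were called lower in aged ASCs, namely Myb, Igll1, Vpreb1, Dntt and Rag1. Of all tested probes 0.325% were called lower. Ebf1 (log2 fold change -0.19) and Cd93 (-0.05) were not called, Il7r (0.00) was not called, and Vpreb3 (0.08) was not tested. The mean level over the 9 was 8.55 to 8.94 in aged and 8.94 to 9.85 in young ASCs, and the log2 of their summed signal was 11.86 to 12.41 in aged and 12.51 to 13.34 in young ASCs. None of the 9 was undetected in a whole group. Of the called markers, Dntt and Rag1 were detected in 2 of 6 aged samples, Igll1 in 3, Vpreb1 in 5 and Myb in 6. Each was detected in 9 of 9 young samples, which alone were enough for it to pass the filter. Young sample 2 had the lowest precursor mean of the young samples, 8.94, and also the lowest member mean, while young sample 1 had the highest of both. In aged ASCs sample 5 had the lowest precursor mean, 8.55, and the highest member mean, 9.66. Aged sample 1 had the highest precursor mean of the aged samples, 8.94, and a member mean of 9.60. The part of these cells in the members' differences was not tested.

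Plasma cell markers were higher in aged ASCs. Of 10 listed, 8 had a named probe, and all 8 had a higher mean in aged ASCs, against 48.2% of all tested probes. Sdc1 was not tested, and 2 of the 7 tested were called higher, Xbp1 and Mzb1, against 1.06% of all tested probes. The mean over the 8 was 9.31 to 10.34 in aged and 9.14 to 9.49 in young ASCs, with aged sample 2 alone within the young range. The log2 of their summed signal was 13.47 to 13.94 in aged and 12.94 to 13.41 in young ASCs. The member mean of aged sample 2 was 9.56, close to the aged median of 9.57. The part of this shift in the members' differences was not tested.

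Markers of dividing cells had 8 named probes of 12 listed, of which 7 were tested, with 0 called by limma (3 lower and 1 higher at an unadjusted p under 0.05). Their mean was 8.46 to 8.84 in aged and 8.72 to 9.03 in young ASCs, the log2 of the sum was 11.56 to 12.26 in aged and 11.83 to 12.33 in young ASCs, and Bub1 was undetected in every aged sample. Named probes covered 6 of 10 erythroid, 10 of 10 neutrophil, 6 of 9 mature B, 5 of 6 T cell, 4 of 7 macrophage and 6 of 6 basophil markers. Only 4 erythroid, 10 neutrophil, 2 mature B, 1 T cell, 2 macrophage and 5 basophil markers were tested. Of the tested markers limma called 0 (4 lower and 1 higher at an unadjusted p under 0.05), and for the others no call was possible. Ms4a1 and Cr2 of mature B cells were undetected in every aged sample and Ms4a2 of basophils in every young sample. The ranges of the mean levels of these lists overlapped between aged and young ASCs, with neutrophil markers at 10.46 to 11.60 in aged and 10.54 to 11.56 in young ASCs and erythroid markers at 8.41 to 9.07 in aged and 8.65 to 9.91 in young ASCs. The T cell mean was 8.09 to 8.58 in aged and 8.14 to 9.04 in young ASCs, with young sample 2 the highest. The part of any of these cells in the members' differences was not tested.

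**Figure D4:**
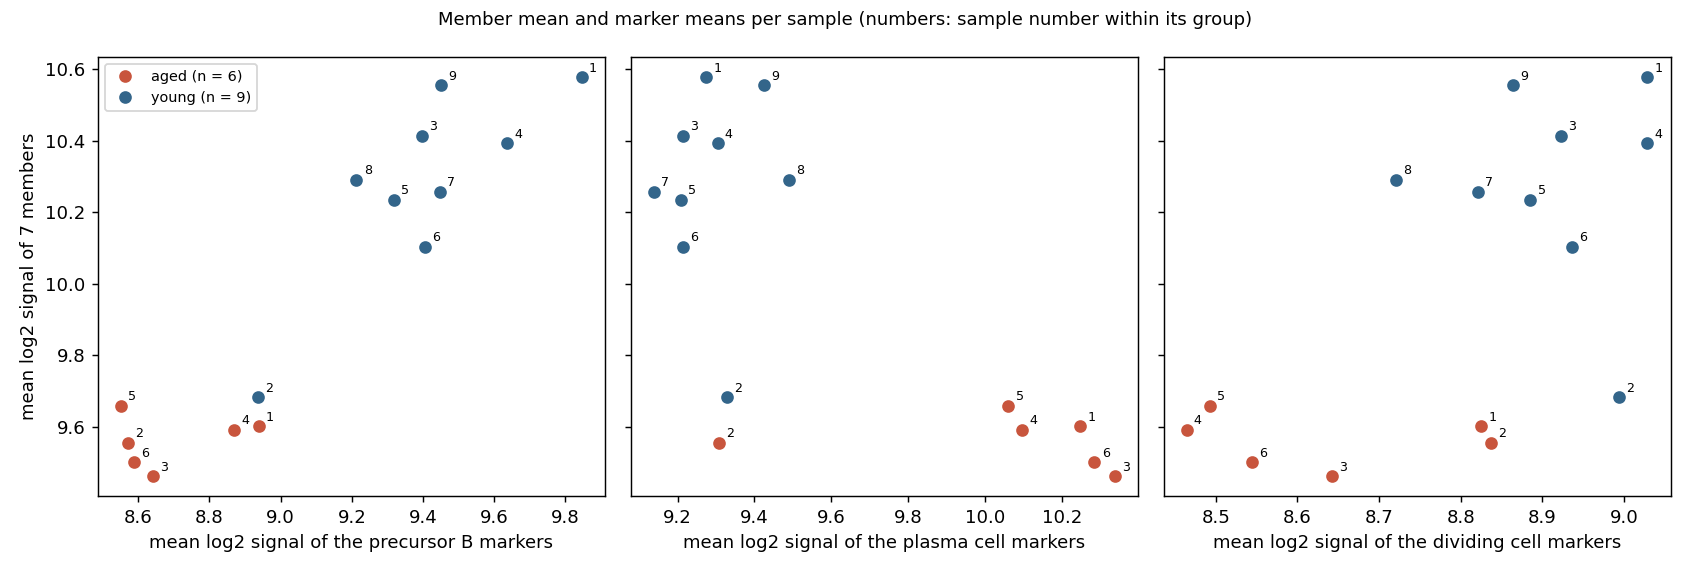
Mean log2 signal of the 7 tested members on their brightest probe (vertical axis) against the mean log2 signal of precursor B, plasma cell and dividing cell markers (horizontal axes, 1 panel each) in 6 aged and 9 young ASC samples, numbered within their group. Young sample 2 lies next to the aged samples in the precursor panel. Aged sample 2 lies within the young range on the plasma cell axis, and aged samples 1 and 2 do so on the dividing cell axis.

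The number of member probes called depended on single samples. Leaving out 1 sample at a time gave 0 called member probes without aged sample 3 and 7 without young sample 2. It gave 1 without aged sample 4, 2 without aged sample 1, aged sample 6 or young sample 3, and 3 without aged sample 5, young sample 4 or young sample 9. Over all tested probes, 36 were called lower with every sample kept, 10 without aged sample 3 and 99 without young sample 2. Cbx5 ILMN_3055904 was called in 12 of these 15 fits, Nasp ILMN_1238894 in 14, Nasp ILMN_1237993 in 9, Dek ILMN_2755384 in 8 and Hmgn2 ILMN_2639081 in 3. Scaling each array to its 75th percentile in place of quantile normalization called 1 member probe, and 7 of all tested probes were called lower. All 14 tested member probes still had a lower mean in aged ASCs, and the median over the members was -0.59 while that over all tested probes was 0.05.

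**Figure D5:**
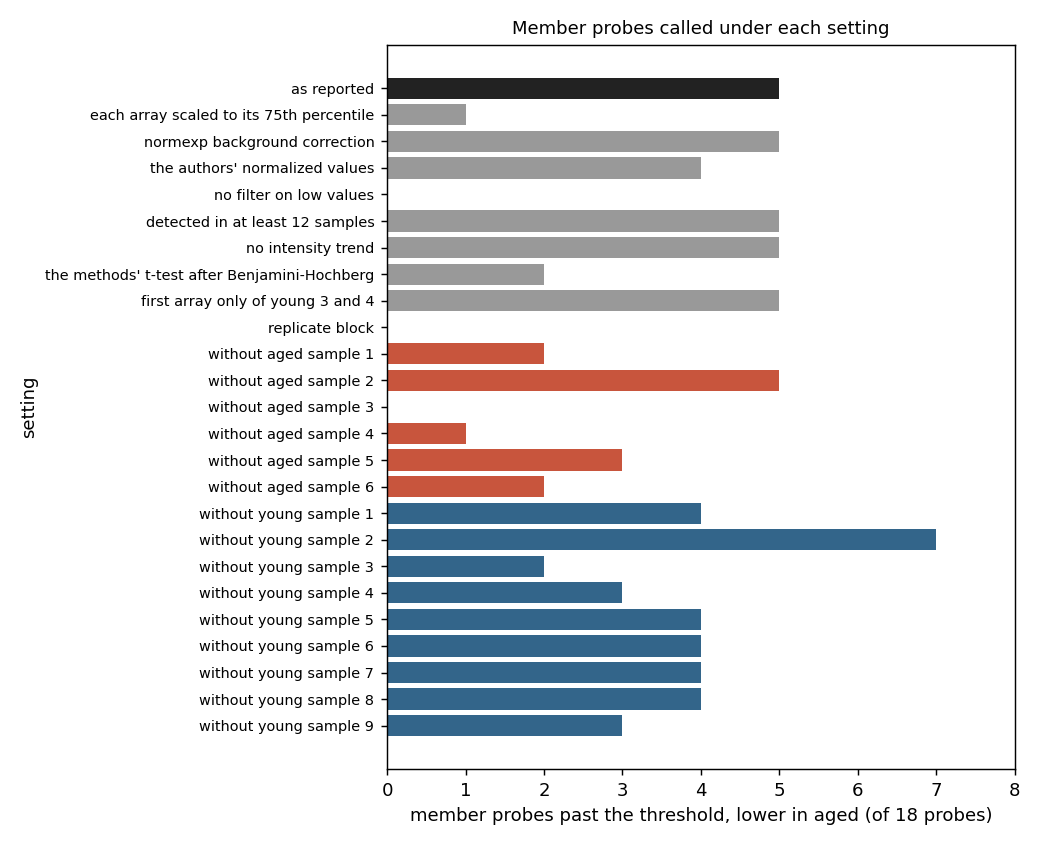
Number of the 18 member probes called lower in aged ASCs (horizontal axis) under each processing setting, with the reported setting in black, other settings in grey, fits without 1 aged sample in red and fits without 1 young sample in blue. The counts run from 0 to 7, and the reported count is 5.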

How the data were processed

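ASCs of 6 aged and 9 young samples were compared on 17 arrays. Per array, the authors deposited intensity values that are mean signals of each probe with neither a background nor a scale correction, next to a detection p-value that the authors deposited for each signal. A second table of intensities, which the authors had quantile normalized, covers 26509 probes (array medians 286 to 296). RNA was amplified from total RNA with a whole transcriptome kit, and the scanner software is not given in the sources used here.

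With limma 3.58.1 (R 4.3.3), signals were quantile normalized, log2 transformed and averaged over repeat arrays, and the repeated samples took the lower detection p of their arrays. Probes with a detection p under 0.05 in at least 7.5 of 15 samples whose highest signal was at least 1.2 times the lowest were kept for testing, 11073 in all, of which 8638 carry 1 gene name. A probe takes its name from the platform annotation, which gives 20873 probes 1 gene. The age groups were tested two-sided by lmFit and eBayes (trend on mean intensity), p-values were adjusted by Benjamini-Hochberg over these probes, and 0.05 was the threshold. The procedure was tested on simulated data. Gene lists use the brightest tested probe of a gene, and list means and summed signals use every gene with a named probe.

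All members were named on every probe. Of each further list up to 3 genes with the smallest p and 1 with the highest signal were named, and the 5 genes closest to the member mean. The members and lists were chosen with earlier results of these data known. Versions 1.17.8 of data.table, 2.3.3 of pandas and 3.10.9 of matplotlib were used. The number of arrays limits the precision.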

Additional observations from a re-analysis of the deposited data

Results flagged for a closer look

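Single samples stood apart from the rest of their group on 6 probes, by a gap to the nearest sample that is large against the range of the group. This was checked in 60 groups of samples, and chance flags about 1 in 20 groups.

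Young sample 2 was the lowest young sample on 3 of these probes, Dek ILMN_2755384 at 8.70, Cbx3 at 9.06 and Cenpa at 8.49 on the log2 scale. The next young sample of Dek ILMN_2755384 was at 9.58. This is also the young sample with the lowest member mean, 9.68, and the lowest mean of the precursor B markers, 8.94, and their part in these values was not tested. In aged ASCs the sample with the lowest precursor mean, sample 5 at 8.55, had the highest member mean, 9.66. Without young sample 2, 7 member probes were called in place of 5, and 99 of all tested probes were called lower in place of 36.

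Aged sample 2 was far above the other aged samples for Nasp ILMN_1251930 at 9.33, with the next aged sample at 8.68. Young sample 1 was far above the other young samples for Asf1a at 9.40. Young sample 6 was the lowest young sample for Lbr at 10.27, with the next at 10.98.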

How the results depend on the processing

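Among the named genes, 2 untested probes near 0 changed sign, Asf1a (0.02) to -0.07 with the replicate block and as low as -0.20 with 1 sample left out, and Cbx5 ILMN_1228337 (0.04) to -0.05 with 75th percentile scaling and -0.04 without aged sample 2. No tested probe of a member or named list gene changed sign under any alternative run. All tested probes called numbered 153, and 89 with arrays brought to a common 75th percentile, where 92.1% of calls were higher in aged ASCs in place of 76.5%. They numbered 45 with no filter on low values, 99 with the methods' t-test after Benjamini-Hochberg adjustment, and 40 (without aged sample 3) to 317 (without aged sample 2) with 1 sample left out. The methods' t-test passed 1492 probes at its unadjusted threshold, 583 of them lower in aged ASCs. Member probes called numbered 5, and 1 with 75th percentile scaling, 0 with no filter, 2 with the t-test, and 0 (without aged sample 3) to 7 (without young sample 2) with 1 sample left out. The median over the members, -0.82, was -0.59 with 75th percentile scaling, -1.02 with normexp background correction, -0.57 with no filter, which added the untested members, and -0.87 (without young sample 6) to -0.69 (without aged sample 3) with 1 sample left out. The chaperone list had 1 called gene, Nap1l1, and 0 with 75th percentile scaling, with no filter or with the t-test, and 0 (without aged sample 1, among 9 such fits) to 2 (without young sample 2) with 1 sample left out. The HMG list had 0, 1 with the t-test, and 0 in every fit with 1 sample left out. The heterochromatin list had 0 called genes, and 0 to 1 with 1 sample left out, the 1 being Lmnb1 without young sample 5. The cause of these changes was not tested.

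With the sample number as a replicate block, 55 probes, 0 member probes and 0 genes of the chaperone list were called. Same-numbered samples deviated together with correlations of -0.10 to 0.23 in 6 pairs, and 2 of 6 aged samples correlated best with their own number, so the numbers were not taken to pair the samples. Normexp moved the log2 fold changes of all 18 member probes further from 0, that of Cbx5 ILMN_3055904 to -2.16 and that of Dek ILMN_2755384 to -1.95. Probes near background, such as those of Asf1a, Asf1b and Chaf1b, limit what can be seen of these genes.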
